A study of Rattus norvegicus with 38 samples.

Results

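Chia, Chi3l1 and Chit1 were measured in the lungs of rats that had breathed cigarette smoke or room air. These 3 genes, 3 of the 14217 genes on the array, were named as a family by symbol, and each is represented by 1 probe set. The probe set of a gene was chosen by its mean log2(intensity + 16) over all 38 arrays, so that for these genes no other probe set stood inside or outside the choice. Chia is the acidic mammalian chitinase, Chit1 is chitotriosidase, and Chi3l1 is a chitinase-like protein that is also called YKL-40 in humans. The animals were female N:NIH rats, 34 weeks old, from lines bred for low (LCR) or high (HCR) intrinsic running capacity. There were 12 LCR smoke, 7 LCR sham, 12 HCR smoke and 7 HCR sham animals. Exposure took place on 5 days per week for 12 weeks, and sham animals breathed room air. All 4 groups came from the selected lines, and sham animals of the same line are the control for smoke. RNA came from about 25 mg of lung per animal, with 1 array per animal.

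Chitinases of glycoside hydrolase family 18 cleave chitin, the polymer of N-acetylglucosamine found in insects, mites, crustaceans and fungal walls. Mammals make no chitin, and their chitinases meet it in food and in inhaled particles. In mice, Chia is secreted by airway and alveolar epithelial cells and by macrophages, and it rises in type 2 inflammation. In humans, Chit1 is a product of activated macrophages. Chi3l1 binds chitin without cleaving it, is made by macrophages, neutrophils and epithelial cells, and is a serum marker in human lung disease.

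Chit1 and Chi3l1 lie next to each other on chromosome 13, on the same strand, and only 1 long noncoding RNA gene lies between them in the RefSeq gene table of the GRCr8 assembly. Chia lies on chromosome 2, beside Chi3l3 and Chial1 of the same family, which were not analysed here because no probe set carries their symbol. The sequences from 250 bases before to 50 bases after the start of each gene are from RefSeq on GRCr8, plus strand, and are printed because the neighbours Chit1 and Chi3l1 moved in opposite directions with smoke. Each is 5′ to 3′, at chr2:196302437-196302736 for Chia, chr13:48193589-48193888 for Chi3l1 and chr13:48117636-48117935 for Chit1. Capitals mark matches to a searched motif.
Chia: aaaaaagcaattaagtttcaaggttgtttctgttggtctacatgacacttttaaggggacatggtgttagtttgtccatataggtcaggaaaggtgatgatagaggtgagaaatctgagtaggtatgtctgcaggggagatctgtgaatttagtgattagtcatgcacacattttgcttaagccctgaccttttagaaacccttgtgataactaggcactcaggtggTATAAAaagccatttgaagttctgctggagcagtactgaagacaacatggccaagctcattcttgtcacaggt
Chi3l1: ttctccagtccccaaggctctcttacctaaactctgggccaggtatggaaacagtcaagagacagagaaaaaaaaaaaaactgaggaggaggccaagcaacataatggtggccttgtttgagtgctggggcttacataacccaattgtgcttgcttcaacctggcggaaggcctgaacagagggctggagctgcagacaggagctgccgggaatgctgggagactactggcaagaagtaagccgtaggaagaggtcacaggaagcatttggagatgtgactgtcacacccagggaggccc
Chit1: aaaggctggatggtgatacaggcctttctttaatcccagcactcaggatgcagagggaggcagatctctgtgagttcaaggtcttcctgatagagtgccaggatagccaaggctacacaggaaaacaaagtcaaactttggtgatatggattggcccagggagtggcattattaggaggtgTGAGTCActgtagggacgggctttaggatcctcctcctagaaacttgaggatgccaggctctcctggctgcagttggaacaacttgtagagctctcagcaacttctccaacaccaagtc
RefSeq lists a second start for Chit1, which is not printed.

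The motifs searched on both strands were the TATA box TATAAA, the AP-1 motif TGANTCA, the STAT6 motif, the aryl hydrocarbon receptor core GCGTG, the NRF2 motif TGACNNNGC and the PU.1 motif GAGGAAG. The Chia window holds TATAAA, 23 bases before the start, as do 14.2% of 33469 promoter windows of that length. The printed Chit1 window holds 1 match to TGANTCA, 69 bases before the start, and 7.33% of windows have one. The window of the second Chit1 start, not printed, holds 1 match to GAGGAAG on the minus strand, 70 bases before that start. The Chi3l1 window holds none of the 6 motifs. Of all windows, 7.28% hold the STAT6 letters, 29.7% the aryl hydrocarbon receptor core, 12.1% the NRF2 letters and 12.4% the PU.1 letters. None of the capitalised matches overlap. These matches are descriptions of letters, and binding was not measured.

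Array medians lay between 5.92 and 6.06 log2, and arrays correlated at 0.958 to 0.997 over genes. The 3′ minus 5′ difference of Actb probe sets, a sign of RNA quality, averaged 0.65 ± 0.04 in LCR smoke against 0.84 ± 0.14 in LCR sham, and 0.67 ± 0.07 in HCR smoke against 0.92 ± 0.51 in HCR sham (log2, SD, n = 12 smoke and 7 sham arrays a line). That of Gapdh averaged 0.04 in LCR smoke against 0.15 in LCR sham, and 0.08 in HCR smoke against 0.30 in HCR sham. HCR sham 0432 stood apart with 2.06 for Actb and 1.20 for Gapdh. The interquartile range of the arrays averaged 2.86 in HCR smoke against 2.99 in HCR sham, and its mean was lower in smoke than in sham in LCR as well. The smoke calls of the members held with each of these measures as a covariate and without 0432. Lung markers were high throughout, with lowest intensities of 9830 for Sftpc, 9614 for Scgb1a1 and 3071 for Ager over the 38 arrays. Arrays are numbered group after group, and for that reason order and group cannot be told apart. Heart muscle genes stood high on HCR smoke 0410, 0414, 0415 and 0417, on LCR sham 0442 and on HCR sham 0433, and the last of these also had the highest skeletal muscle and fat sums. The members are therefore also given without these 6 arrays where that matters. The arrays that stayed in that fit were not free of heart muscle signal. Sums were 1689 on HCR sham 0432, 1476 on LCR sham 0440, 1046 on LCR smoke 0420 and 947 on HCR smoke 0419. Group medians of this sum lay between 101 and 152. Intensities are linear, differences are of log2(intensity + 16), and this scale understates changes of low genes. Levels of different genes are not compared, because probe sets differ in their response. The number of arrays limits the precision. In pieces of whole lung, a lower signal from fewer cells of a type and from less RNA per cell cannot be told apart.

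Chia, which cleaves chitin and works at acid pH, rose with smoke in both lines. In LCR smoke lungs its intensity ran from 5754 to 6972 with a median of 6043, against 919 to 2108 with a median of 1322 in LCR sham lungs. In HCR smoke lungs it ran from 2786 to 5913 with a median of 4831, against 870 to 1782 with a median of 1125 in HCR sham lungs. Smoke and sham animals did not overlap in either line, and the lowest smoke animal lay above every sham animal of both lines. The rise was 2.09 ± 0.14 log2 in LCR (SE, limma adjusted p = 1.8e-13), which is 4.25-fold. In HCR it was 1.90 ± 0.14 (limma adjusted p = 5.0e-12), which is 3.74-fold. By size of rise Chia stood in position 22 of 14217 genes in LCR and 20 in HCR.

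Chi3l1, the chitin-binding protein without chitinase activity, rose in both lines too. Its intensity was 2005 to 3898 (median 2709) in LCR smoke lungs, against 489 to 1197 (median 683) in LCR sham lungs. In HCR it was 1398 to 3924 (median 3208) in smoke lungs, against 875 to 1890 (median 1471) in sham lungs. The LCR groups did not overlap. In HCR, 1 of the 12 smoke animals, 0416, lay among the sham animals and the other 11 lay above them all. The rise was 1.91 ± 0.19 log2 in LCR (3.76-fold, limma adjusted p = 7.8e-10) and 1.16 ± 0.19 in HCR (2.24-fold, limma adjusted p = 1.0e-05).

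Chit1, the other active chitinase and the close neighbour of Chi3l1, fell in both lines. LCR smoke lungs had intensities of 123 to 187 (median 157), against 184 to 253 (median 213) in LCR sham lungs. HCR smoke lungs had 97.0 to 180 (median 146), against 196 to 240 (median 221) in HCR sham lungs. The HCR groups did not overlap, and in LCR the overlap was between smoke 0429 at 186.8 and sham 0442 at 183.8. The fall was -0.48 ± 0.08 log2 in LCR (limma adjusted p = 5.3e-06) and -0.57 ± 0.08 in HCR (limma adjusted p = 7.3e-07), or 1.40-fold and 1.48-fold lower with smoke. The 3 HCR smoke animals with the least Chit1, 0415 at 97.0, 0414 at 122.4 and 0417 at 125.2, had high heart muscle sums of 12628, 3669 and 2411. The fourth HCR smoke array with high heart muscle genes, 0410, had a sum of 8828 and a Chit1 intensity of 147.5, close to the group median. Heart muscle sums of the 8 measured genes ran from 98.6 to 12628 in HCR smoke, against 94.4 to 3719 in HCR sham. Without the 6 arrays with muscle or fat genes the HCR fall was -0.46 (limma adjusted p = 1.5e-05).

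**Figure D1:**
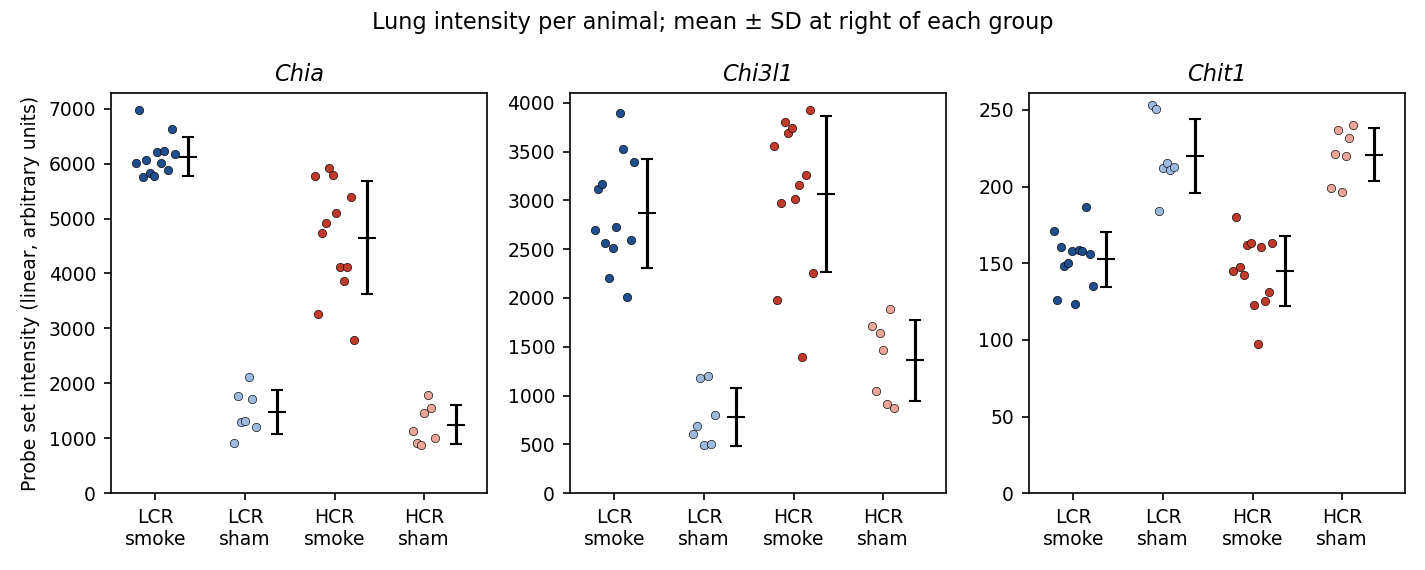
Linear probe set intensity of Chia, Chi3l1 and Chit1 for each animal, with points for the animals and the group mean ± SD to their right (LCR smoke n = 12, LCR sham n = 7, HCR smoke n = 12, HCR sham n = 7). Chia and Chi3l1 are higher and Chit1 is lower in smoke than in sham lungs of both lines, and each panel has its own axis from 0.

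Thus 2 of the 3 members rose and 1 fell in each line. Such calls are frequent here. In LCR, 22.7% of all genes were called higher and 27.9% lower with smoke. In HCR, 17.7% were called higher and 30.4% lower. Complete separation of the smoke and sham animals was less frequent. It was seen upward in 5.9% of genes in LCR, where Chia and Chi3l1 are among them, and in 1.58% in HCR, where Chia is. Downward it was seen in 8.55% in LCR and in 4.28% in HCR, where Chit1 is among them. Each of the 6 smoke calls held in all 38 fits that leave out 1 array and under 13 other settings. Over these the LCR change lay between 1.98 and 2.18 for Chia, between 1.82 and 2.03 for Chi3l1 and between -0.53 and -0.43 for Chit1. The HCR change lay between 1.83 and 2.00 for Chia, between 1.03 and 1.26 for Chi3l1 and between -0.62 and -0.46 for Chit1.

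Between the lines, Chia was higher in LCR than in HCR after smoke. The difference was 0.43 ± 0.12 log2 (1.35-fold, limma adjusted p = 0.0314), and 8 of 12 LCR smoke animals lay above the highest HCR smoke animal. Of all genes, 4.61% were called higher in LCR under smoke. The call ended without HCR smoke 0419 (adjusted p = 0.065), 0409 (0.0543) or 0417 (0.0505). It also ended in a fit with a term for the arrays' interquartile range (0.0571) and without the 6 arrays with muscle or fat genes (0.0918). Under sham the Chia difference, 0.25 ± 0.16, did not pass (limma adjusted p = 0.457). LCR smoke animals lay close together, with an SD of 0.08 log2, against 0.34 in HCR smoke, 0.40 in LCR sham and 0.40 in HCR sham. The difference in spread was not tested.

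Chi3l1 was lower in LCR than in HCR under sham, by -0.81 ± 0.22 log2 (limma adjusted p = 0.0276). All 7 LCR sham animals lay below the HCR sham mean, and 5 of them lay below every HCR sham animal. Of all genes, 2.34% were called lower in LCR under sham. The call ended in 7 of the 38 fits that leave out 1 array, namely HCR sham 0434, 0435 or 0438 or LCR sham 0440, 0441, 0443 or 0445, with adjusted p of up to 0.076. It also ended with only the sham groups in the fit (0.106). After smoke the lines differed by -0.06 ± 0.17 (95% confidence interval -0.40 to 0.27, limma adjusted p = 0.851). Chit1 differed between the lines by 0.07 ± 0.07 after smoke (interval -0.06 to 0.21) and by -0.01 ± 0.09 under sham (interval -0.19 to 0.17), and neither passed.

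None of the 3 members passed the test of a different smoke change in the lines, which 1.87% of genes passed. The Chi3l1 change was larger in LCR by 0.75 ± 0.27 log2 (interval 0.19 to 1.31), with an unadjusted limma p = 0.00952 and limma adjusted p = 0.125. The difference was 0.18 ± 0.20 for Chia (interval -0.23 to 0.60) and 0.08 ± 0.11 for Chit1 (interval -0.15 to 0.31).

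**Figure D2:**
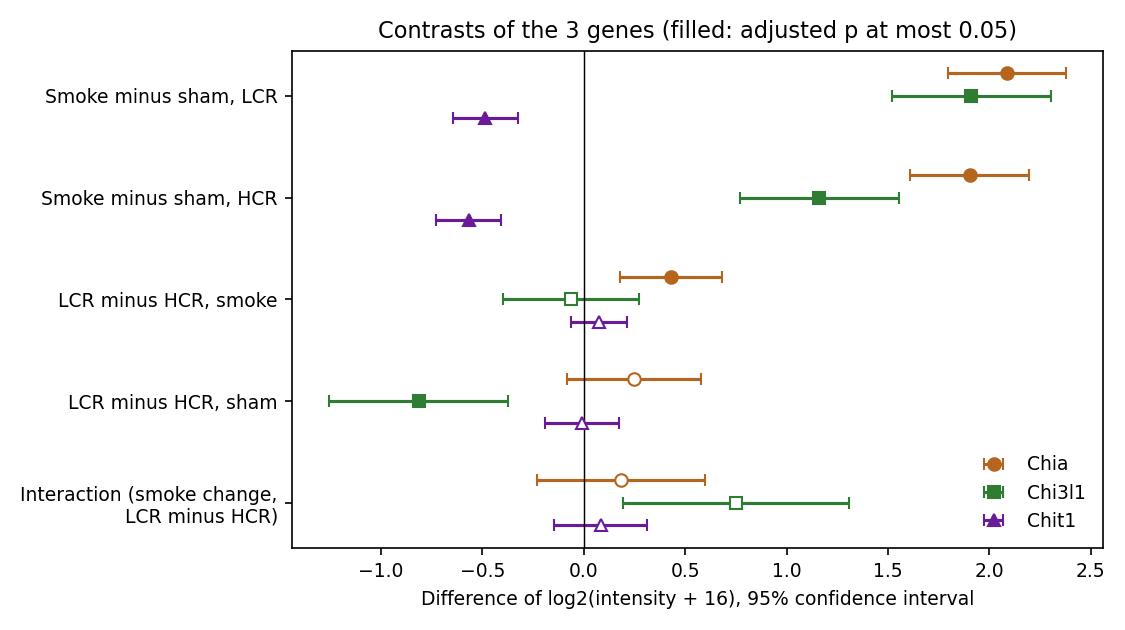
Differences of log2(intensity + 16) for the 3 genes in the 5 comparisons, with 95% confidence intervals from the limma fit over 38 arrays. Filled symbols have an adjusted p of at most 0.05, and these are all 6 smoke changes, Chia between lines under smoke (0.43) and Chi3l1 between lines under sham (-0.81).

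Animals of the HCR smoke group differed in how far Chia and Chi3l1 stood above sham. The same 3 animals, 0409, 0416 and 0419, were the lowest of 12 for both genes. They had 3257, 3862 and 2786 for Chia and 1981, 1398 and 2252 for Chi3l1. Their Chit1 values, 180.3, 160.5 and 163.1, were in the upper part of the group. Cyp1a1, a smoke-induced cytochrome P450 named after its values were seen, was 3104, 3467 and 3965 in them, within the range of the other HCR smoke animals, 2803 to 4881. It lay between 6.20 and 16.4 in HCR sham.

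In HCR smoke, Chia and Chi3l1 followed each other at Pearson r = 0.73 and Spearman rho = 0.76 over 12 animals (permutation p = 0.00839 and 0.0055). After adjustment over all 72 relations computed, p was 0.151 and 0.0932. Without the 2 animals farthest from the Chia median r was 0.68, and without 0409, 0416 and 0419 it was 0.60 over 9 animals (permutation adjusted p = 0.525). In LCR smoke r was 0.26 and rho 0.32 (permutation p = 0.417 and 0.306). Chi3l1 and Chit1 had r = -0.38 in HCR smoke and -0.32 in LCR smoke, with permutation p = 0.222 and 0.308. In HCR smoke that r was -0.02 without the 2 animals farthest from the Chi3l1 median and turned to 0.47 over the 9 animals left without 0409, 0416 and 0419 (permutation p = 0.201). Chia and Chit1 had r = -0.55 and rho = -0.60 in LCR smoke (permutation p = 0.0651 and 0.0423, adjusted p = 0.469 and 0.411). In HCR smoke their r was -0.17 (permutation p = 0.605). It turned to 0.77 over the same 9 animals (permutation p = 0.013, adjusted p = 0.468).

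The mean log2 value of 9 neutrophil genes tracked both rising members in HCR smoke. For Chia r was 0.89 and rho 0.92 (permutation p = 5.0e-05 and 7.0e-05, adjusted p = 0.00312 and 0.00504), and for Chi3l1 r was 0.89 and rho 0.87 (permutation p = 0.00011 and 0.00062, adjusted p = 0.00312 and 0.0223). The mean of 11 macrophage genes tracked Chia at r = 0.90 and rho = 0.84 (permutation p = 0.00013 and 0.00106, adjusted p = 0.00312 and 0.0254). Without the 2 animals farthest from the median of the member, r was 0.80, 0.90 and 0.70, with permutation adjusted p of 0.0785, 0.0785 and 0.27. Without 0409, 0416 and 0419, r was 0.71, 0.71 and 0.59 over 9 animals (permutation adjusted p = 0.476, 0.476 and 0.525). The 3 animals were picked after the values were seen, as the lowest for both members. Both omissions narrow the range of the values and leave fewer animals, and the loss of the calls was not separated from that. In LCR smoke the same 3 relations had r = 0.44, 0.11 and -0.02 (permutation p = 0.16, 0.718 and 0.939). In LCR sham they had r = -0.26, 0.63 and -0.03 over 7 animals (permutation p = 0.566, 0.1375 and 0.955). In HCR sham they had r = -0.49, 0.62 and 0.40 over 7 animals (permutation p = 0.277, 0.115 and 0.386). Of the 60 relations planned and the 12 with Cyp1a1, the 3 in HCR smoke were the ones that passed after adjustment. None with Cyp1a1 did, with r between 0.03 and 0.27 in the smoke groups. Chi3l1 and the macrophage mean in HCR smoke had r = 0.71 and rho = 0.76 (permutation adjusted p = 0.156 and 0.0932). Without the 2 animals farthest from the Chi3l1 median that r was 0.84 (permutation adjusted p = 0.0927). Without 0409, 0416 and 0419 it was 0.56 (permutation adjusted p = 0.525).

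**Figure D3:**
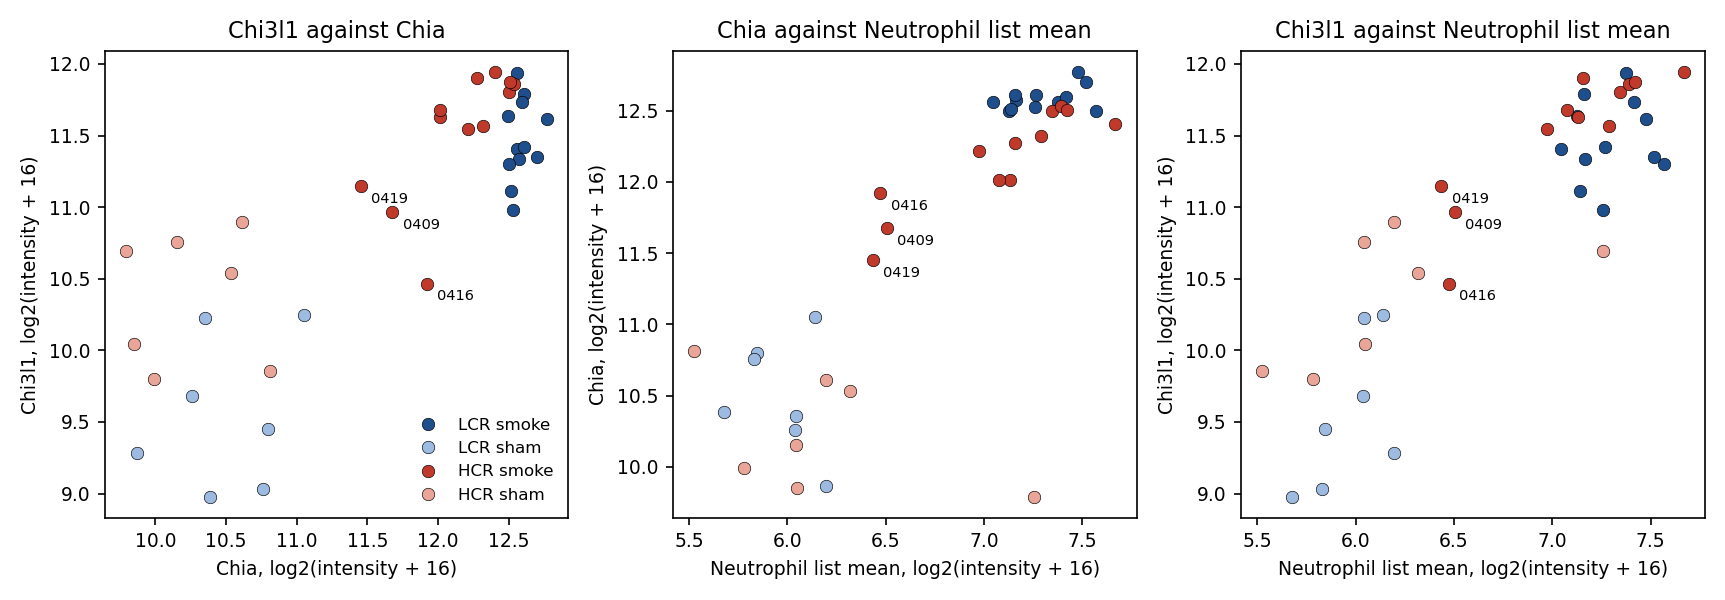
Each point is 1 animal, on log2(intensity + 16) axes, for Chi3l1 against Chia, Chia against the mean of 9 neutrophil genes, and Chi3l1 against that mean. Within HCR smoke the points spread along a diagonal with 0409, 0416 and 0419 at its low end, while LCR smoke animals sit together at high Chia.

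Marker lists of the cells that can make these proteins moved with smoke, and their part in the member changes was not tested. Neutrophil genes rose in 6 of 9 measured in LCR and 5 of 9 in HCR, with a list median of 0.36 and 0.31. Of all genes, 22.7% were called higher with smoke in LCR and 17.7% in HCR. The 3 neutrophil genes given next were named by lowest p. S100a9 rose by 2.84 ± 0.28 in LCR and by 2.29 ± 0.28 in HCR (limma adjusted p = 3.5e-10 and 6.0e-08), and Lcn2 by 3.17 and 2.09 and Il1r2 by 2.52 and 1.57 rose too. Summed neutrophil intensity was 5271 to 11104 in LCR smoke against 572 to 1406 in LCR sham, and 2131 to 9694 in HCR smoke against 444 to 4086 in HCR sham. A few genes made most of this sum. In LCR smoke it averaged 6989, S100a9 alone averaged 4334, and Lcn2 reached 5754 in 1 animal. Of 11 macrophage genes, LCR had 9 higher and 1 lower with smoke, and HCR had 8 higher and 2 lower. The lysosomal gene Cd68 rose by 1.80 in LCR and 1.09 in HCR, and the complement gene C1qb by 1.47 and 1.06. Summed macrophage intensity was 9508 to 14031 in LCR smoke against 4444 to 6379 in LCR sham, and 6951 to 14371 in HCR smoke against 4973 to 6994 in HCR sham.

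Of the epithelial lists, those of alveolar type 2 and club cells moved less evenly. Of 5 measured alveolar type 1 genes, 4 fell in LCR and 5 in HCR, with list medians of -0.24 and -0.30. Alveolar type 2 genes rose in 7 of 10 in LCR, with a list median of 0.19. In HCR 3 rose, 1 fell and 6 did not pass, with a list median of 0.0019. Over all genes, 22.7% were called higher and 27.9% lower in LCR, and 17.7% and 30.4% in HCR. The surfactant genes Sftpd (0.43 and 0.17) and Sftpa1 (0.24 and 0.09) and the lamellar body gene Lamp3 (0.60 and 0.45) rose in both lines. They were named by lowest p and are the 3 that rose in HCR. Summed type 2 intensity was 43224 to 46165 in LCR smoke against 34771 to 41664 in LCR sham, and 40808 to 46060 in HCR smoke against 38082 to 44179 in HCR sham. Club cell genes fell in 4 of 6 in LCR, and 1 rose and 1 fell in HCR. Cyp4b1 fell in both (-0.81 and -0.60), Cyp2f4 fell in LCR (-1.62) and had 0.02 in HCR, and Scgb3a1 had -0.87 in LCR and rose in HCR (1.88). The HCR rise of Scgb3a1 had an SE of 0.63, and 3 of 12 smoke animals lay above every HCR sham animal. Summed club cell intensity was 11075 to 15151 in LCR smoke against 14146 to 21884 in LCR sham, and 12156 to 22706 in HCR smoke against 12736 to 17884 in HCR sham. Of the 6 arrays with muscle or fat genes, HCR smoke 0410, 0415 and 0417 had sums of 19272, 22706 and 19381. LCR sham 0442 had 21884. HCR smoke 0414 and HCR sham 0433 had 13791 and 13880, close to or at their group medians. The part of these arrays in the club cell changes was not tested. No defining marker was at 0, since the table holds no intensity under 2.09. The median change over all genes was -0.00 in LCR and -0.03 in HCR.

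Other proteins of the same fold showed small differences. Chid1, a lysosomal chitinase-domain protein, rose in LCR by 0.15 ± 0.04 (limma adjusted p = 0.0018) and had 0.03 ± 0.04 in HCR. Ctbs, the lysosomal di-N-acetylchitobiase, had 0.00 ± 0.05 in LCR and -0.11 ± 0.05 in HCR and passed in neither.

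Proteins reported to bind Chi3l1 or carry its signal, mostly from human and mouse work, were mixed. Of 7 measured, 4 rose and 2 fell in LCR, and 2 rose and 1 fell in HCR, with a median of 0.18 and 0.02. Beside this, 22.7% of all genes were called higher and 27.9% lower in LCR, and 17.7% and 30.4% in HCR. Galectin-3 (Lgals3), a lectin abundant in macrophages, rose by 1.30 ± 0.10 in LCR and 0.75 ± 0.10 in HCR (limma adjusted p = 9.1e-13 and 1.8e-07). Its median intensity was 4769 in LCR smoke against 2029 in LCR sham, and 4620 in HCR smoke against 2656 in HCR sham. The LCR change was larger by 0.55 ± 0.14 (limma adjusted p = 0.0317). Cd44, the hyaluronan receptor, rose by 0.64 and 0.34. Ager, the receptor for advanced glycation end products and an alveolar type 1 cell gene, fell by 0.24 in LCR and 0.39 in HCR. Sdc1 (0.18) and Ptgdr2 (0.18) rose and Tmem219 (-0.14) fell in LCR, and in HCR these had -0.00, 0.04 and -0.06. The decoy receptor gene Il13ra2 had 0.03 and 0.02 and stayed between 6.68 and 17.2 in intensity in all groups.

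Genes that release and recycle N-acetylglucosamine, the unit of chitin, rose in 6 of 7 in LCR, and in HCR 3 rose and 1 fell. The shares over all genes were 22.7% higher and 27.9% lower in LCR, and 17.7% and 30.4% in HCR. This list and the next are short, and neither was tested as a set. Hexa, a lysosomal hexosaminidase subunit, rose by 0.44 and 0.24, and Gnpda1 by 0.42 and 0.17. Amdhd2 rose by 0.36 in LCR and had 0.15 in HCR. Innate sensors and adaptors linked to chitin rose in 4 of 5 in LCR and 2 of 5 in HCR. Tlr2 rose by 0.53 and 0.27 and Myd88, an adaptor of Toll-like receptors, by 0.46 and 0.16. The mannose receptor Mrc1 rose by 0.71 ± 0.11 in LCR and had 0.10 ± 0.11 in HCR, a difference of 0.62 ± 0.16 (limma adjusted p = 0.0361).

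Of 17 genes of the type 2 cytokine program, which induces Chia in mice, LCR had 8 higher and 3 lower with smoke, and HCR had 6 higher and 3 lower. Their median was 0.09 in LCR and 0.06 in HCR. Calls over all genes were 22.7% higher and 27.9% lower in LCR, and 17.7% higher and 30.4% lower in HCR. The list was not tested as a set. Arg1, the arginase of alternatively activated macrophages in mice, rose by 2.15 ± 0.21 and 1.69 ± 0.21 (limma adjusted p = 4.0e-10 and 1.1e-07). Its median intensity was 415 in LCR smoke against 101 in LCR sham, and 372 in HCR smoke against 80.5 in HCR sham. The chemokines Ccl17 (1.15 and 0.59) and Ccl22 (0.51 and 0.37) rose as well. Arg1, Ccl17 and Ccl22 were named by lowest p. The cytokine gene Il13 (0.04 and 0.06) did not pass in either line, and the alarmin gene Il33 fell (-0.68 and -0.25), both named after their values were seen.

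**Figure D4:**
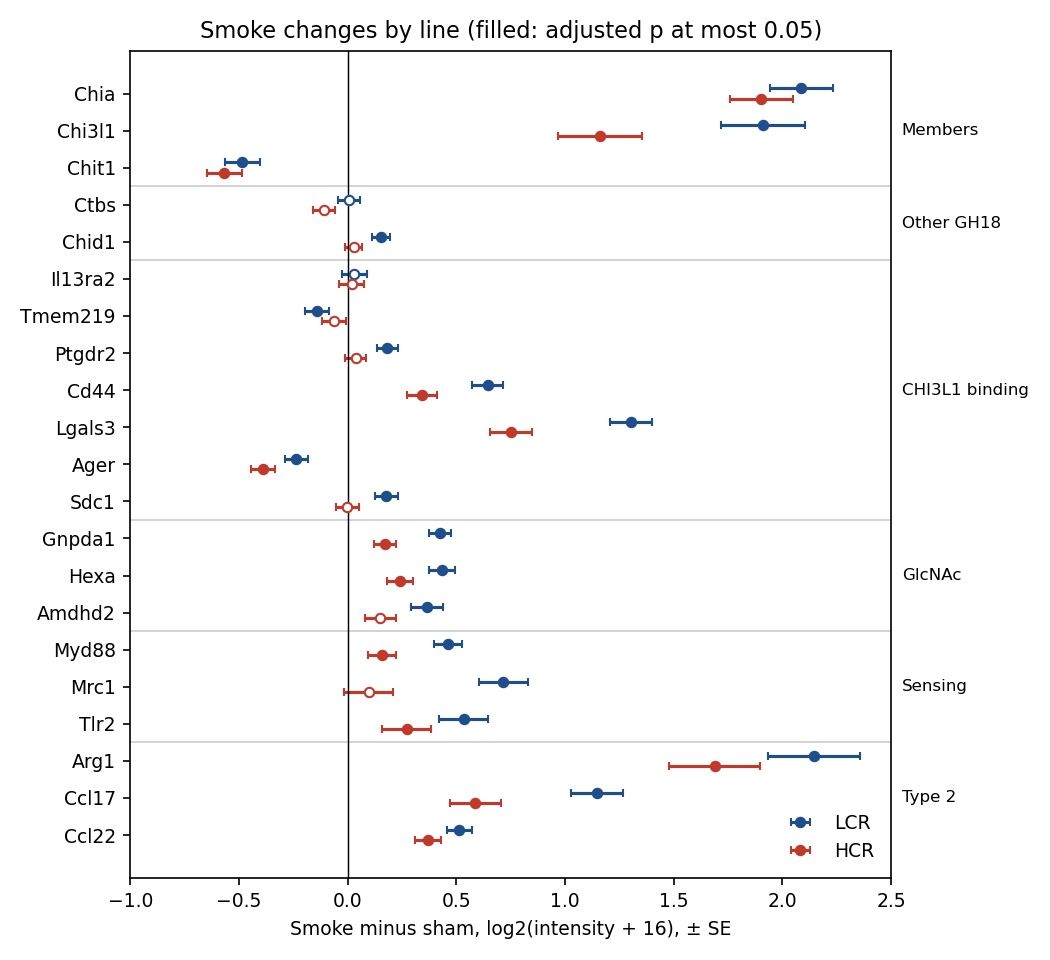
Smoke minus sham differences of log2(intensity + 16) ± SE in LCR and HCR for the members and the named genes of the related lists, filled where the adjusted p is at most 0.05. Chia, Chi3l1, Lgals3 and Arg1 show rises of 0.75 or more in both lines, and Chit1 and Ager fall.

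Genes that varied most like each member were sought among 9641 others with a mean log2 value of at least 6, as the highest Pearson r over 38 animals after the group means were removed. For Chia these were Nxpe4 (0.64), Cib1 (0.63), Ttc7a (0.62), Nectin2 (0.62) and the lysosomal protease gene Ctsb (0.61). In HCR smoke alone Ctsb had r = 0.91 with Chia, and in LCR smoke 0.31. For Chi3l1 they were the tight junction gene Cldn10 (0.77), Nek7 (0.72), the neutrophil genes S100a8 (0.70) and S100a9 (0.68), and Emb (0.67). Cldn10 had r of 0.76 in LCR smoke, 0.79 in LCR sham, 0.72 in HCR smoke and 0.87 in HCR sham. For Chit1 they were Plekha1 (0.75), Pmp22 (0.74), Lhfpl6 (0.73), Gucy1a1 (0.72) and Ager (0.72). All 5 of these fell with smoke in both lines, as did Chit1, and Pmp22 had -0.36 and -0.37. Of all genes, 27.9% were called lower in LCR and 30.4% in HCR. The genes listed for Chi3l1 all rose in both lines, as did Chi3l1. Those listed for Chia all rose in LCR, and in HCR Nxpe4, Cib1 and Ctsb rose while Ttc7a and Nectin2 did not pass. The Spearman rho of these 15 genes lay between 0.55 and 0.76, and r without the 2 arrays farthest from the member's median lay between 0.48 and 0.75. They were picked as the highest of many, so no p is given.

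Genes beside the members did not share one direction. Next to Chi3l1, Mybph, a myosin-binding protein gene, rose by 0.11 and 0.16 and Adora1, an adenosine receptor gene, by 0.42 and 0.29, both at low intensity. Below Chit1, the matrix gene Fmod fell in LCR (-0.69) and had 0.27 in HCR, and Prelp fell by 0.29 and 0.28. Around Chia, Dennd2d (0.80 and 0.55), Wdr77 (0.39 and 0.35) and Cept1 (0.33 and 0.26) rose in both lines, while Cimap3 had -0.59 and 0.16 and did not pass. None of these neighbours changed as much as Chia.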

How the data were processed

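Lung RNA of 38 rats was measured on Affymetrix Rat Genome 230 2.0 arrays. The deposited values are linear intensities per probe set. For the authors' summarisation and normalization, software was not given in the sources used here, and no detection calls were used. Of 31099 probe sets, 20826 with 1 gene symbol gave 14217 genes, each by its probe set with the highest mean. Values were log2(intensity + 16). A limma 3.58.1 fit (R 4.3.3) of 4 group means over all 38 arrays gave 5 comparisons, with Benjamini-Hochberg adjustment over 14217 genes and a threshold of 0.05. Correlations within groups used permutation tests (SciPy 1.17.1, 100000 resamples with 12 animals, exact with 7). The fit was tested on simulated data. Promoters came from the RefSeq table (GRCr8). Probe sequences were not used, so cross-hybridisation among family members was not examined. The members and lists were chosen with earlier results of these data known. Genes were named as follows: members, other family proteins and Chi3l1 receptors, up to 3 of each other list by lowest p in either smoke comparison, the 5 most similar to each member, and the 2 nearest measured genes on each side. Cyp1a1, Il13 and Il33 were added after values were seen. Nothing in the labels ties animals to litters, so animals were treated as independent, which could not be checked. The limma p-values set a difference against an estimate of the spread between animals that all 4 groups share. They do not cover variation between separately bred lines of the same kind.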

Additional observations from a re-analysis of the deposited data

Results flagged for a closer look

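A single animal standing apart from its group was tested in the LCR sham and HCR sham groups of 7, and not in the smoke groups of 12. Of 110 such tests 10 passed, and chance gives about 1 in 20. Among the sham animals none concerned Chia, Chi3l1 or Chit1. In LCR sham, 0440 was high for Lcn2 (538.1) and Ptgdr2 (27.07), and 0442 was high for Scgb3a1 (2925) and low for Pmp22 (2681). In HCR sham, 0434 was high for Il1r2 (101.6) and 0433 for Cyp1a1 (16.42). Also in HCR sham, 0439 was low for Hexa (587.3), 0432 for Sftpa1 (6343) and Prelp (318.1), and 0436 for Fmod (234.1). All are intensities.

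The smoke change was larger in LCR than in HCR for Lgals3 by 0.55 log2 (limma adjusted p = 0.0317) and for Mrc1 by 0.62 (limma adjusted p = 0.0361). Under sham, LCR minus HCR was -0.44 for Lgals3 and -0.43 for Mrc1 (limma adjusted p = 0.0147 and 0.0444). After smoke it was 0.11 and 0.18, and neither passed (limma adjusted p = 0.447 and 0.241).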

How the results depend on the processing

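The smoke calls of Chia, Chi3l1 and Chit1 held in both lines under every setting run. The Chia difference between lines under smoke was 0.46 with the interquartile range as covariate and 0.43 without the 6 arrays with muscle or fat genes, no longer passing, and 0.37 to 0.47 with 1 array left out. The Chi3l1 difference under sham was -0.81 with only the sham groups in the fit, no longer passing, and -0.93 to -0.72 with 1 array left out. Without the 6 arrays the differences of Chit1 that had not passed turned sign, to -0.031 under smoke, 0.030 under sham and -0.061 for the interaction, and with 1 array left out the sham one ran from -0.042 to 0.029. In HCR smoke, the correlations of Chia with neutrophil genes, Chi3l1 with neutrophil genes and Chia with macrophage genes no longer passed without the 2 animals farthest from the median (r = 0.795, 0.897 and 0.704) or without 0409, 0416 and 0419 (0.707, 0.715 and 0.591), both with fewer animals and a narrower range. The second omission was picked after the values were seen. The causes of the other changes were not tested. Genes called numbered 6830 for smoke in HCR, 7193 for smoke in LCR, 898 between lines under smoke, 531 under sham and 266 for the interaction. With 1 array left out they ran from 6262 to 6985, 6605 to 7367, 599 to 1246, 314 to 830 and 81 to 768. With all probe sets tested there were 12324, 13229, 1240 under sham and 531 for the interaction. Median centring gave 815 under sham and 549 for the interaction. Array weights gave 2860 under smoke, 946 under sham and 1537 for the interaction. The interaction had 562 with the Gapdh and 629 with the Actb covariate. The interquartile range gave 3023 for HCR, 365 under smoke and 827 under sham. Without the 6 arrays there were 487 under smoke and 58 for the interaction, and with only the sham groups 233. Higher calls were 36.8% in HCR and 44.8% in LCR, against 53.1% and 64.8% after median centring. Between lines they were 73.1% under smoke, against 56.2% after quantile normalization, and 37.3% under sham, against 20.6% after median centring. The interaction cannot be fitted with only 2 groups. No paired analysis was possible because the arrays share no replicate numbers across groups.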
